A study of Mus musculus with 5 samples.

Results

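The 9 core genes of the Hedgehog pathway were followed in prostate tumors of TripleTg mice, castrated or intact. They were selected by symbol from the 24527 genes of the deposited count table and comprise the 3 ligands Shh, Ihh and Dhh, the receptor Ptch1, the signal transducer Smo, the transcription factors Gli1, Gli2 and Gli3, and the ligand-binding inhibitor Hhip. All 9 had an entry, and 8 passed the filter for testing, with Dhh left under it. Hedgehog ligands are secreted, lipid-modified proteins that bind Patched receptors and so relieve the inhibition of Smoothened, which then changes the processing of the Gli factors at the primary cilium. Gli1, Ptch1 and Hhip are themselves transcribed in response to the signal and are widely read as its output, Ptch1 and Hhip acting as feedback inhibitors. In the developing prostate the epithelium is known as the source of ligand and the surrounding mesenchyme as the tissue that responds.

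All 5 mice carried the genotype hHGFtg:H11hMET/+:Ctnnb1L(Ex3)/+:PBCre4, on a mixed C57BL/6 and C3H SCID background. The human HGF transgene is expressed ubiquitously, whereas human MET and stabilized β-catenin are switched on in prostatic epithelia by Cre recombinase driven from the probasin promoter. The comparison asked which transcripts differ after androgen withdrawal. Castration took place at 4 months in 3 mice, whose tissue was taken at the age of 8 months, and the 2 intact mice matched them in age and genotype. Intact mice carry every transgene too, so the comparison holds no mouse with normal β-catenin or without the transgenes. Castrated replicates 1, 2 and 3 had totals of 28015507, 18951782 and 20492061 counts, and the intact replicates 21560355 and 22853501. In the following, CPM are counts scaled to library size after TMM normalization, a trimmed-mean correction between libraries, and 1 CPM corresponded to between 18.6 and 28.7 counts, depending on the sample. TPM, which also divide by gene length, are used wherever levels of different genes are compared.

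The intact samples stood apart from each other in the markers of the labelled tissue. Tgm4, a secretory product of the mouse prostate, had 28976 counts in intact replicate 2 and 5 in intact replicate 1, against 12, 1 and 1 in castrated replicates 1, 2 and 3. Pbsn, which encodes probasin, had 112 counts in intact replicate 2 and 0 in intact replicate 1, and Msmb had 0 in all 5 samples. Apof, the one gene of the 6 prostate secretory markers that passed the filter, was instead highest in castrated replicate 3, with 721 counts against 59 and 5 in the other castrated samples and 1 and 46 in the intact samples. The 6 markers summed to 4.4, 1.23 and 36.9 TPM in the castrated samples, in order of replicate, and to 0.513 and 923 TPM in the intact samples, so the largest sum, carried by Tgm4, and the smallest were both intact. Epithelial keratins were present throughout, with Krt18, the most abundant of 8 epithelial markers, between 629 and 1110 CPM. Across genes, which are not independent replicates, log2 CPM of castrated replicate 1 correlated more closely with intact replicate 1 (r = 0.922) than with castrated replicates 2 (0.910) and 3 (0.885), and the intact samples had r = 0.848 with each other. Because the intact group consisted of these 2 unlike samples, the fold changes below, except those of Dhh and Col1a1, were also computed without each of them. In bulk tissue, fewer cells of a type and less RNA per cell cannot be told apart.

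Per unit of length, Smo and Ptch1 were the most abundant of the 9 genes. Mean TPM over the 5 samples was 48.0 for Smo and 21.3 for Ptch1. The lowest Smo level, 34.7 TPM, lay above the highest Ptch1 level of 25.5 TPM, and the lowest Ptch1 level of 16.2 TPM lay above every value of the 7 remaining genes. Shh (mean 5.11 TPM), Gli1 (4.77), Ihh (4.61), Gli3 (3.75) and Gli2 (2.02) followed, and the ranges of these neighbours overlapped, with single samples from 0.759 to 9.89 TPM. Hhip (0.733) and Dhh (0.458) were lowest on average, although Hhip reached 1.81 TPM in castrated replicate 2. The summed level of the 9 genes was 74.5, 83.2 and 109.7 TPM in castrated replicates 1, 2 and 3 and 107 and 78.9 TPM in intact replicates 1 and 2, so it did not separate the groups.

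**Figure D1:**
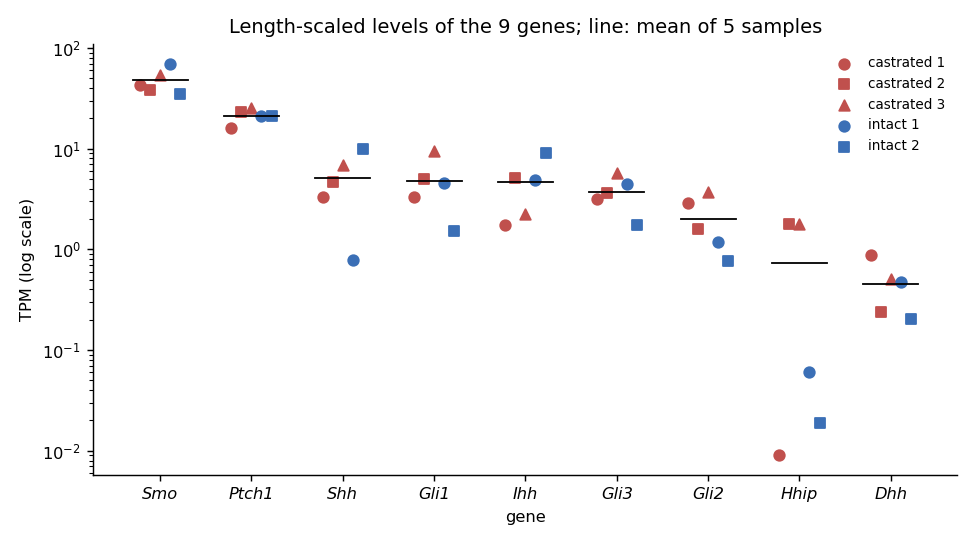
TPM (logarithmic axis) of the 9 Hedgehog genes in each of 5 samples, ordered by their mean, which is drawn as a line; red symbols are castrated and blue symbols intact mice. Smo and Ptch1 lie above the other genes in every sample, and Hhip has the widest spread, from 0.00904 to 1.81 TPM.

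Among the ligands, Shh and Ihh were both highest in intact replicate 2, and neither separated castrated from intact mice. Shh, on chromosome 5 from 28456840 to 28467101 (mm10, minus strand), had 107, 98 and 163 counts in castrated replicates 1, 2 and 3, or 3.73, 5.26 and 7.94 CPM. In intact replicates 1 and 2 it had 19 and 306 counts, or 0.851 and 14.2 CPM, so that the lowest and the highest sample were both intact and differed 16.7-fold. Its mean was 5.64 ± 2.13 CPM (SD, n = 3) in castrated and 7.54 ± 9.46 CPM (SD, n = 2) in intact samples. The log2 fold change of castrated over intact samples was -0.42 (standard error, SE, 1.06; adjusted p = 0.878 by edgeR's quasi-likelihood F-test), and it became 2.68 without intact replicate 2 and -1.31 without intact replicate 1. In the GENCODE annotation 15.7% of the exon bases of Shh lie opposite the antisense gene 9530036O11Rik and 12.7% opposite the noncoding gene Gm26894. Since the sources used here do not say whether counting respected strand, reads of these genes may be mixed. Opposite-strand genes also cover smaller shares of Gli1 (Gm47200 5.31%, Arhgap9 1.24%), Gli3 (Gm6556 1.96%) and Hhip (Gm27820 1.93%).

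Ihh, on chromosome 1 from 74945315 to 74951672 (minus strand), had 65, 122 and 60 counts in castrated replicates 1, 2 and 3, which are 2.27, 6.54 and 2.92 CPM. The intact samples had 136 and 321 counts, or 6.09 and 14.9 CPM. Castrated replicate 2 lay just above intact replicate 1, and the groups therefore overlapped by this single pair. The mean was 3.91 ± 2.30 CPM (SD, n = 3) in castrated and 10.5 ± 6.24 CPM (SD, n = 2) in intact samples, with a log2 fold change of -1.43 (SE 0.64, adjusted p = 0.364). Its direction was the same in all 16 alternative settings, in which it ranged from -2.0 to -0.69. Dhh, the ligand best known from Schwann and Sertoli cells, had only 45, 8 and 19 counts in castrated and 18 and 10 counts in intact samples, and exceeded 1 CPM in 1 sample. In a fit without the filter its log2 fold change was 0.64 (SE 0.77, adjusted p = 0.706). Gm49442, an antisense gene, covers 25.2% of the exon bases of Dhh, and Rhebl1, a protein-coding gene on the same strand, covers 12.4%. The balance of the ligands differed from mouse to mouse, as the ratio of Shh to Ihh in TPM was 1.88, 0.918 and 3.11 in castrated replicates 1, 2 and 3, 0.160 in intact replicate 1 and 1.09 in intact replicate 2. Summed over the 3 ligands, intact replicate 2 had 19.2 TPM and the other 4 samples between 5.91 and 9.99 TPM.

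**Figure D2:**
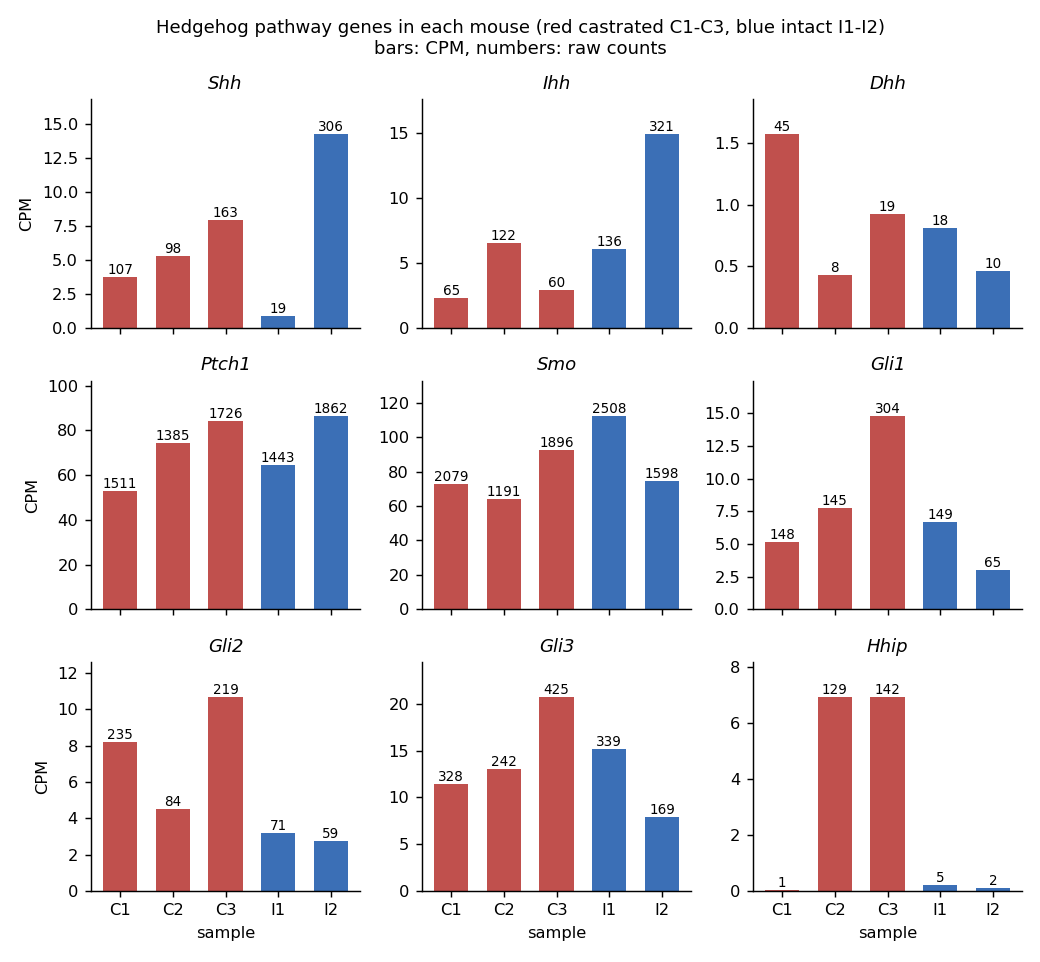
CPM (bars, linear axis from 0) and raw counts (numbers above the bars) of the 9 Hedgehog genes in castrated replicates C1 to C3 (red) and intact replicates I1 and I2 (blue). Shh and Ihh are highest in I2, Hhip is seen almost entirely in C2 and C3, and Gli2 is the gene whose castrated values all lie above both intact values.

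Ptch1 and Smo varied least among the members. Ptch1, the receptor that holds Smo inactive until ligand binds, lies on chromosome 13 from 63508328 to 63573460 (minus strand). It had 52.7, 74.3 and 84.1 CPM in castrated replicates 1, 2 and 3 and 64.7 and 86.5 CPM in intact replicates 1 and 2, a span of 1.64-fold over all 5 samples. The groups overlapped, and the log2 fold change was -0.10 (SE 0.27, adjusted p = 0.884), with a change of sign to 0.079 without intact replicate 2 and to 0.067 without castrated replicate 1. On the TPM scale the intact samples had 20.9 and 21.0 for Ptch1, beside 0.789 and 9.89 for Shh. Smo, the seven-pass membrane protein that carries the signal to the cilium, lies on chromosome 6 from 29735497 to 29761366 (plus strand). Its values were 72.5, 63.9 and 92.4 CPM in castrated and 112 and 74.3 CPM in intact samples. Intact replicate 1 was highest and intact replicate 2 fell among the castrated samples, so the log2 fold change of -0.29 (SE 0.27, adjusted p = 0.647) became 0.058 without intact replicate 1.

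The 3 Gli factors had higher means in castrated samples, and all 3 were lowest in intact replicate 2. Gli2, the main activator among them, was the one member for which every castrated sample lay above both intact samples, as was the case for 17.0% of all genes tested. Gli2, on chromosome 1 from 118834061 to 119053619 (minus strand), had 235, 84 and 219 counts, or 8.20, 4.50 and 10.7 CPM, in castrated replicates 1, 2 and 3. In intact replicates 1 and 2 it had 71 and 59 counts, or 3.18 and 2.74 CPM. The means were 7.79 ± 3.10 CPM (SD, n = 3) and 2.96 ± 0.311 CPM (SD, n = 2), and the fitted fold was 2.63 (log2 fold change 1.39, standard error 0.49). Its p was 0.0349 before and 0.316 after adjustment (edgeR's quasi-likelihood F-test), so the difference did not pass the threshold. Across the 16 alternatives its log2 fold change stayed between 1.04 and 1.68, with adjusted p from 0.0920 to 0.771.

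Gli1, whose transcription depends on the signal itself, lies on chromosome 10 from 127329882 to 127341579 (minus strand). It had 5.16, 7.78 and 14.8 CPM in castrated replicates 1, 2 and 3 and 6.68 and 3.02 CPM in intact replicates 1 and 2. Castrated replicate 1 lay below intact replicate 1, and castrated replicate 3 stood well above the rest with 304 counts against 65 to 149. The means were 9.25 ± 4.99 CPM (SD, n = 3) and 4.85 ± 2.58 CPM (SD, n = 2), and the log2 fold change of 0.93 (SE 0.62, adjusted p = 0.518) was 0.42 without castrated replicate 3, 0.43 without intact replicate 2 and 1.63 without intact replicate 1. Gli3, which serves mainly as the repressor of the pathway, lies on chromosome 13 from 15463723 to 15730025 (plus strand). Its values were 11.4, 13.0 and 20.7 CPM in castrated and 15.2 and 7.86 CPM in intact samples. These groups overlapped, the log2 fold change was 0.38 (SE 0.45, adjusted p = 0.713), and it was -0.057 without intact replicate 2. Ligand and Gli transcripts lay at opposite ends in 1 sample. Intact replicate 2 combined the highest summed ligand level, 19.2 TPM, with the lowest summed Gli level, 4.02 TPM, whereas the remaining samples had Gli sums between 9.40 and 18.8 TPM. The ratio of Ptch1 to Gli1 in TPM was accordingly 13.7 in intact replicate 2 and between 2.71 and 4.87 elsewhere.

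Hhip had the largest difference of the 9 genes, and it rested on castrated replicates 2 and 3. Hhip encodes a membrane-anchored protein that captures all Hedgehog ligands, and lies on chromosome 8 from 79965851 to 80058008 (minus strand). Its counts were 129 and 142 in castrated replicates 2 and 3, which are 6.92 CPM in each. In castrated replicate 1 there was 1 count, and in intact replicates 1 and 2 there were 5 and 2 counts, or 0.224 and 0.0930 CPM. Castrated replicate 1, at 0.0349 CPM, was thus the lowest of all samples, and the groups overlapped. Hhip passed the filter only through castrated replicates 2 and 3, where it was high, so its tests are not read as evidence of a difference. The means were 4.62 ± 3.97 CPM (SD, n = 3) and 0.159 ± 0.0927 CPM (SD, n = 2). The log2 fold change was 4.80 (SE 1.99, adjusted p = 0.345 by edgeR's quasi-likelihood F-test), and over 16 alternatives it ranged from 1.36 to 5.56, with adjusted p from 0.0572 (DESeq2) to 0.858 (replicate block). It was 2.69 with the replicate block, 2.59 with limma voom (adjusted p = 0.798) and 1.36 on log2(TPM + 0.5) (adjusted p = 0.502). Leaving out castrated replicate 1 gave 5.39 (adjusted p = 0.172), and the fold changes without castrated replicate 2 or 3 were 4.39 and 4.38, for which the filter of all samples was kept because Hhip would otherwise be dropped.

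Adipocyte markers were high in the same 2 samples as Hhip. Adipoq, which encodes the fat hormone adiponectin, had 0.523, 68.8 and 68.3 CPM in castrated replicates 1, 2 and 3, and 0 and 2 counts in intact replicates 1 and 2. The 8 adipocyte markers summed to 154, 1679 and 1404 TPM in castrated and 119 and 170 TPM in intact samples. Of the 8, 4 lay above both intact samples in every castrated sample, beside 17.0% of all genes tested. These 4 passed the filter through castrated samples only, so their separation is not read as evidence of a difference. One of them, Plin1, had 3 counts in castrated replicate 1, against 2 and 0 in intact replicates 1 and 2. The most abundant of the 8 by mean TPM was Fabp4, at 37.0, 287 and 193 CPM in castrated and 26 and 52 CPM in intact samples. Lep and Cfd had 0 counts in both intact samples, so no median fold change is given for this list. The part of fat tissue in the level of Hhip was not tested. The genes whose profile over the 5 samples lay closest to Hhip, by the root mean square difference of log2(CPM + 0.25) centred on each gene, were Slc7a10 (0.34), Tshr (0.37) and Acvr1c (0.42). Slc7a10 had 71 and 118 counts in castrated replicates 2 and 3 and at most 1 count in any other sample.

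**Figure D3:**
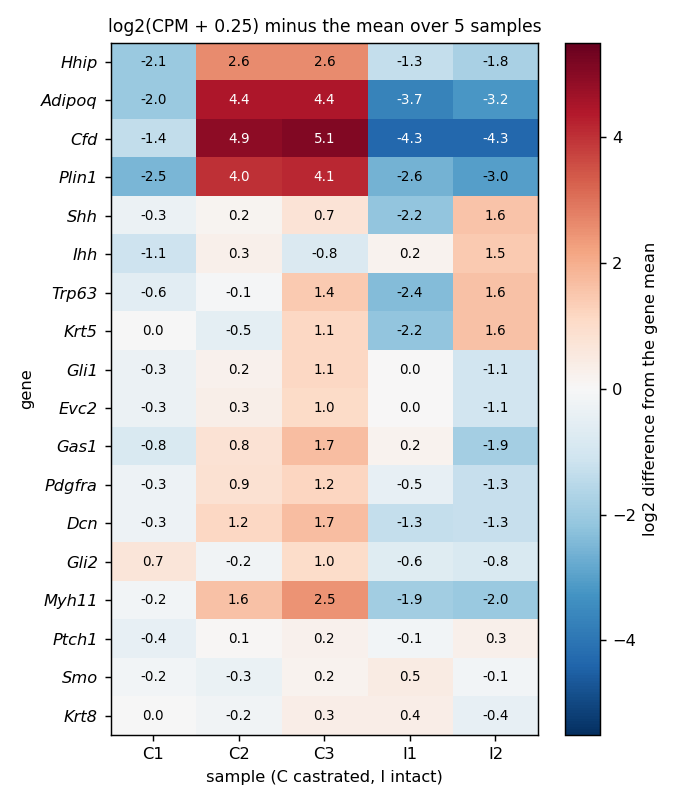
log2(CPM + 0.25) minus the gene's mean over the 5 samples, for 7 Hedgehog genes and Evc2, Gas1 and marker genes that were picked after their values were seen; columns are castrated (C) and intact (I) replicates, red is above and blue below the mean. Hhip, Adipoq, Cfd and Plin1 are above their means in C2 and C3 only, Shh, Trp63 and Krt5 are lowest in I1 and highest in I2, and Gli1 and Evc2 share one profile.

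The promoter sequences of Hhip and Gli2 are shown because these had the highest fold changes of the members, and that of Ptch1 because its fold change was nearest to 0. The windows run from 250 bases before to 50 bases after a RefSeq transcription start (GRCm38.p6, the assembly of mm10), 5′ to 3′ on the gene's own strand. Capitals mark CCACCC or its reverse complement GGGTGG, the core of the Gli binding consensus GACCACCCA. The Hhip window is chr8:80057959-80058258 and the Gli2 window chr1:119053570-119053869. That of Ptch1, chr13:63565686-63565985, belongs to a start inside the gene span given above. All 3 are on the minus strand.
Hhip: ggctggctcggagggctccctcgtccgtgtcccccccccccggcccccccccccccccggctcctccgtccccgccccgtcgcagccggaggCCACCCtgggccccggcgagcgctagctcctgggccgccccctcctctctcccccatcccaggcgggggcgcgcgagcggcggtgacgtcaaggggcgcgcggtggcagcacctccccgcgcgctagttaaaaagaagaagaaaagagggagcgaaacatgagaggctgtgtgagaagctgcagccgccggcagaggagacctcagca
Gli2: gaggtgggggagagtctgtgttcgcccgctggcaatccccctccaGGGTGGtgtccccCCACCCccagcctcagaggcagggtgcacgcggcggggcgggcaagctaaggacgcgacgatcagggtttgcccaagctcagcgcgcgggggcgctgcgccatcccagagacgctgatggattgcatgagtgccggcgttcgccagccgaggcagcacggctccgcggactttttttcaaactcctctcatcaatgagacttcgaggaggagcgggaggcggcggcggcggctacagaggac
Ptch1: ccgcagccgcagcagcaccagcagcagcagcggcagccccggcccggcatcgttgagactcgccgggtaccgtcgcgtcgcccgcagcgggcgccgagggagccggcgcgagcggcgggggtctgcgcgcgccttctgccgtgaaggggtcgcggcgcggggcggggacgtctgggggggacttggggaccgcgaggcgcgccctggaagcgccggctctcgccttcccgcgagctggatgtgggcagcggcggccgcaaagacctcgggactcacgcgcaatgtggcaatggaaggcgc

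The core was found once in the Hhip window, 158 bases before the start, on the gene's own strand. It occurred in both orientations in the Gli2 window, 205 and 192 bases before the start, and not in the Ptch1 window. Windows were at hand for 7 of the 9 members, all except Shh and Gli1, and 6 of these 7 held the core on either strand, against 31.5% of 32817 windows of the same length. The members' windows held 61.7% to 76.3% G and C, and a match is a description of the letters only. The whole consensus GACCACCCA, or TGGGTGGTC, was in none of the 7 and in 0.253% of all windows. The TCF run CTTTGAT, or ATCAAAG, which β-catenin's DNA-binding partners recognize, was likewise in none of the 7 and in 3.73% of all windows.

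Across the whole table, castrated and intact samples were compared by edgeR's quasi-likelihood F-test. None of the 14612 genes tested was called at an adjusted p under 0.05 with an absolute log2 fold change above 1 (0% of them), and none of the 8 Hedgehog genes tested was called either. DESeq2 called 989 and the likelihood ratio test 369 of all genes, and both called 0 of the 8. At an unadjusted p under 0.05 with the same fold threshold, 1 of the 8, Gli2, passed, against 10.9% of all genes tested. Of the 8, 4 had a positive and 4 a negative fold change, with a median log2 fold change of 0.14 beside -0.03 over all genes. Leaving out 1 mouse moved the members' median between -0.24 (without castrated replicate 3) and 0.51 (without intact replicate 1), and it was -0.13 without castrated replicate 2. Hhip, among the genes with a positive fold change, passed the filter through castrated replicates 2 and 3 only. It was not among the genes tested without castrated replicate 2 or 3. Groups did not overlap for 1 of the 8, against 33.1% of all genes. The members' shares thus lay near or below the background of the whole table.

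**Figure D4:**
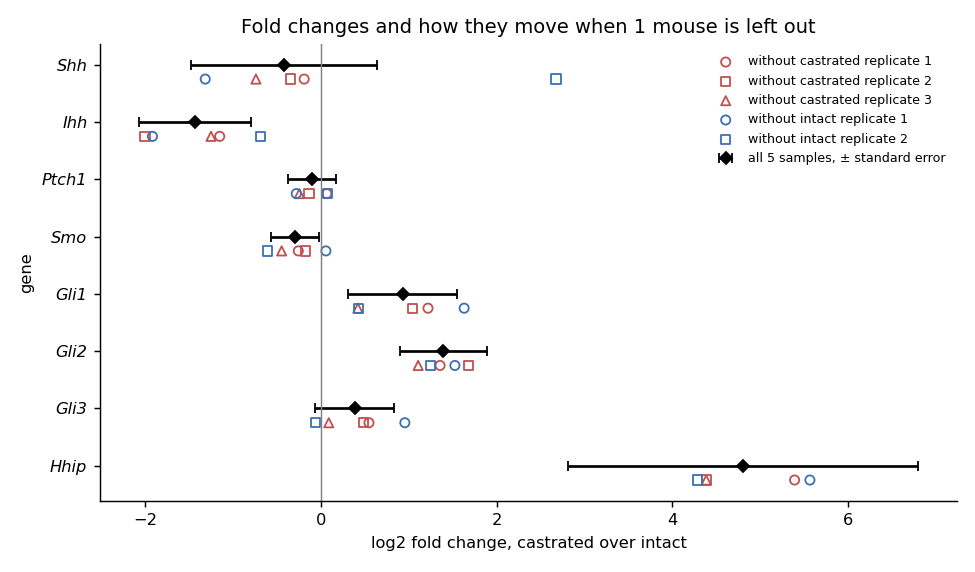
log2 fold change of castrated over intact samples for the 8 Hedgehog genes tested (black diamonds, with 1 standard error), and the same with 1 mouse left out (open symbols; red for a castrated and blue for an intact mouse). Shh moves to 2.68 when intact replicate 2 is left out, Ptch1, Smo and Gli3 also change sign in at least 1 fit, and Gli2 and Hhip are above 0 in every fit. Hhip passed the filter only through castrated replicates 2 and 3, where it was high.

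The other genes of the pathway were taken from 5 lists of 43 genes, of which 42 passed the filter. Of these, 25 had a positive and 17 a negative fold change, with a median log2 fold change of 0.11. Every castrated sample was above both intact samples for 7 genes and below them for 2, while 17.0% and 16.1% of all genes tested did so. At the unadjusted p with the fold threshold, 1 of the 42 was higher (7.66% of all genes tested) and 0 were lower (3.26%), and 0 were called after adjustment. DESeq2 called 2 of the 42, Scube3 and Lrp2, beside 989 of all 14612 genes tested. The likelihood ratio test called 1 of the 42, Scube3, beside 369 of all 14612. Scube3 was also the 1 gene past the unadjusted p, and it passed the filter through castrated samples only.

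Of the 5 genes for lipidation and release of ligand, Scube3 differed most. Scube3 encodes a secreted protein of the family that helps to release lipid-modified ligand, and had 92, 54 and 55 counts in castrated and 9 and 15 counts in intact samples. Every castrated value, from 2.68 to 3.21 CPM, exceeded the intact values of 0.403 and 0.697 CPM. Its log2 fold change was 2.40 (SE 0.53), its adjusted p was 0.289 with edgeR's quasi-likelihood F-test, and it was called by DESeq2 (adjusted p = 0.00128) and by the likelihood ratio test (adjusted p = 0.0367). Scube3 passed the filter through the castrated samples only, so these calls are not read as evidence of a difference. Its relatives Scube2 and Scube1 had log2 fold changes of -0.04 and -0.66, and Disp1, the transporter that exports ligand, had 0.48. For these 3 the groups overlapped, and each changed sign without 1 of the intact mice. Scube1 was at 0.55 without intact replicate 1, and Scube2 was at 1.77 and Disp1 at -0.0045 without intact replicate 2.

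Among the co-receptors, Lrp2 and Gpc3 lay at opposite ends. Lrp2, which encodes the endocytic receptor megalin, had 3248 counts in intact replicate 2 and 2 in intact replicate 1, and 39, 8 and 68 in castrated samples. Its log2 fold change of -5.47 (adjusted p = 0.343) therefore rested on 1 intact mouse and was 4.12 without it, although DESeq2 called it (-5.45, adjusted p = 0.0375). Gpc3, a glypican that competes with Patched for ligand, had 6.42, 42.5 and 133 CPM in castrated and 9.37 and 4.46 CPM in intact samples. Its log2 fold change of 3.13 (adjusted p = 0.344) was 1.83 without castrated replicate 3 and 3.78 without intact replicate 1. With limma voom it was 2.21, and with the replicate block 1.35. The groups overlapped, since castrated replicate 1 lay below intact replicate 1. Gas1, a co-receptor that promotes signaling, had 28.4, 86.7 and 165 CPM in castrated and 58.2 and 13.7 CPM in intact samples (log2 fold change 1.38, adjusted p = 0.516). Its fold change was 0.64 without intact replicate 2, 0.69 without castrated replicate 3 and 2.78 without intact replicate 1. Boc, another co-receptor, was 0.10 on the same scale, and its sign changed without castrated replicate 3 or intact replicate 1. Cdon, also a co-receptor, was above both intact samples in every castrated sample, as was the case for 17.0% of all genes tested.

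None of the genes for ciliary transduction and Gli turnover passed the test. Of the 14 ciliary genes, 3 lay above both intact samples in every castrated sample, beside 17.0% of all genes tested, and 0 lay below, beside 16.1%. Over 14 ciliary genes the median log2 fold change was 0.18, with extremes at Gpr161 (-0.30), a receptor that keeps protein kinase A active at the cilium, and Evc (1.33), part of the complex that binds active Smo. Its partner Evc2 had 8.17, 12.7 and 21.1 CPM in castrated and 10.3 and 4.69 CPM in intact samples (log2 fold change 0.90, adjusted p = 0.496). Without intact replicate 2, castrated replicate 3 or intact replicate 1, Evc was at 0.78, 0.83 and 2.14 and Evc2 at 0.40, 0.48 and 1.59. Gpr161 turned to 1.79 without intact replicate 1 and was -1.16 without intact replicate 2. Tulp3, which brings Gpr161 to the cilium, was at -0.14 and turned to 0.50 without intact replicate 1. Among 8 kinases and ubiquitin ligases that act on the Gli proteins, Prkaca, the catalytic subunit of protein kinase A, was above both intact samples in every castrated sample, by 0.47 on the log2 scale (adjusted p = 0.316). Gsk3b (-0.28, adjusted p = 0.498 by edgeR's quasi-likelihood F-test) and Ulk3 (-0.59, adjusted p = 0.395 by the same test) were below both intact samples in every castrated sample. Of all genes tested, 17.0% lay above and 16.1% below in this way. Btrc was at 0.09, or -0.050 without intact replicate 1.

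Of 10 genes commonly listed as Hedgehog targets in mesenchyme or in growing cells, 9 were tested, 6 with a positive and 3 with a negative fold change. Sfrp1, a secreted Wnt inhibitor, was the one whose groups did not overlap, as was the case for 33.1% of all genes tested. It had 778, 581 and 746 CPM in castrated and 389 and 362 CPM in intact samples, a log2 fold change of 0.90 (SE 0.26, adjusted p = 0.294). Foxf1, a mesenchymal transcription factor, had a log2 fold change of 0.72, which was 0.16 without intact replicate 2, 0.29 without castrated replicate 2 and 1.58 without intact replicate 1. Ccnd2, a G1 cyclin, was at -0.60, with both signs when single mice were left out. Bmp4 was at -1.0 with 113 CPM in intact replicate 1 and 15.2 CPM in intact replicate 2, so leaving out intact replicate 1 turned it to 1.10. Foxl1, with at most 10 counts in a sample, was under the filter.

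**Figure D5:**
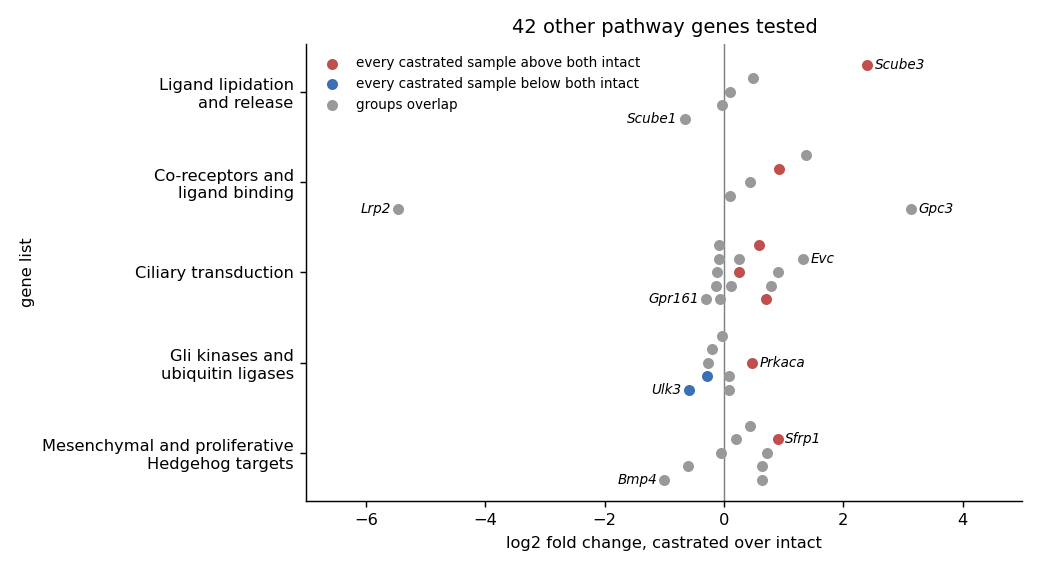
log2 fold change of castrated over intact samples for the 42 other pathway genes tested, by list; red marks genes with every castrated sample above both intact samples, blue those below, and grey those whose groups overlap, and the first and last gene of each list are named. Scube3 at 2.40 lies furthest right among the genes whose groups do not overlap, and Lrp2 at -5.47 is furthest left.

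Stromal markers were measured beside the Hedgehog genes, because responding cells are often mesenchymal. Dcn, the most abundant of 8 fibroblast markers, had 998, 2662 and 3825 CPM in castrated and 487 and 495 CPM in intact samples, and 4 of the 8 lay above both intact samples in every castrated sample (17.0% of all genes tested did). The 8 fibroblast markers summed to 2924, 4651 and 6268 TPM in castrated and 2362 and 1200 TPM in intact samples. Dcn carried much of this difference, and without it the sums were 1805, 1644 and 2035 TPM in castrated and 1788 and 762 TPM in intact samples, so that castrated replicate 2 lay below intact replicate 1. In CPM, the 8 markers were highest in castrated replicate 3 for 3 genes (Dcn, Lum and Pdgfra), in intact replicate 1 for 3 (Col1a1, Col1a2 and Pdgfrb) and in castrated replicate 1 for 2 (Col3a1 and Thy1). Col1a1, a fibrillar collagen chain, had a log2 fold change of -0.36. Smooth muscle markers were higher in castrated samples for 8 of 8 genes, 7 of them without overlap, beside 47.9% and 17.0% of all genes tested, with sums of 455, 752 and 619 TPM against 287 and 140 TPM. Their most abundant gene was Tagln, at a log2 fold change of 1.03 (adjusted p = 0.290). The part of these cells in the levels of the Gli genes was not tested.

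Markers of other cell types were measured as well. All 8 macrophage markers lay above both intact samples in every castrated sample, against 17.0% of all genes tested, with sums of 4825, 14003 and 5202 TPM against 1970 and 2464 TPM. Lyz2 was their most abundant gene, with a log2 fold change of 1.71 (adjusted p = 0.352) that was 1.01 without castrated replicate 2. Endothelial markers summed to 714, 207 and 270 TPM in castrated and 378 and 90.1 TPM in intact samples. Cldn5 was their most abundant gene by mean TPM but led the list in castrated replicate 1 only, where it reached 255 CPM. Without Cldn5 the sums were 290, 176 and 209 TPM in castrated and 300 and 84.5 TPM in intact samples, so that intact replicate 1 was highest. Schwann cell markers summed to 108, 245 and 185 TPM in castrated and 97.4 and 53.6 TPM in intact samples, led by Pmp22. Sox10, a defining gene of Schwann cells, had at most 61 counts in a sample and 0 in intact replicate 2. Dhh was highest in castrated replicate 1, where that sum was lower than in the other castrated samples.

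Of the 8 epithelial markers, 1 ordered the samples as Shh did. Trp63, the basal cell transcription factor, had 21.6, 30.9 and 88.3 CPM in castrated and 6.09 and 101 CPM in intact samples, and so ordered the 5 samples exactly as Shh did, from intact replicate 1 through castrated replicates 1, 2 and 3 to intact replicate 2. The same order was found for Hoxb13, Foxa1, Scube2, Spop and Spink1 in the lists, the last with at most 6 counts in a sample, and for 2.79% of all genes tested. Krt5 had its lowest value, 28.9 CPM, and its highest, 405 CPM, in the same 2 samples as Shh, as did Krt14, another basal keratin. By contrast, 4 of the 8 epithelial markers (Epcam, Cdh1, Krt8 and Krt18) were highest in intact replicate 1, where Shh was lowest. Epcam, an epithelial adhesion molecule, had 1325 CPM there and 511 CPM in intact replicate 2. Epithelial markers summed to 4803, 4446 and 5655 TPM in castrated and 6838 and 3959 TPM in intact samples. Of the 8, 8 overlapped between the groups, while 33.1% of all genes tested did not. The 6 prostate lineage markers, with Tmprss2 the most abundant, summed to 267, 352 and 371 TPM in castrated and 295 and 914 TPM in intact samples. The part of basal and luminal cell shares in the level of Shh was not tested.

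Genes with the profile most like a member were sought among all genes tested, over the 5 samples. Closest to Gli1 was Evc2, with a root mean square difference of 0.0587 on the log2 scale while Gli1 itself spanned 2.20, and it was followed by Sgcd (0.12) and Meis2 (0.12). Evc2 was on the list of ciliary genes, and Evc, Gas1 and Gpc3 of the pathway lists and the endothelial marker Vwf ordered the samples as Gli1 and Evc2 did, an order found in 1.31% of all genes tested. Closest to Shh, which spanned 3.72, were Nup62cl (0.17), Efs (0.18) and Zfp982 (0.18). Gas2l3 (0.22), Pfkfb2 (0.28) and Cers3 (0.29) were closest to Ihh. For Ptch1, which spanned 0.71, the nearest genes were Pcbp2 (0.029), Shisal1 (0.060) and Mcm6 (0.066). A small difference is easily reached by a gene that varies little, and 5 samples allow many genes to come close.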

How the data were processed

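RNA from prostate tumors of 5 TripleTg mice, 3 castrated and 2 intact, was sequenced after depletion of ribosomal RNA. The authors used Trimmomatic 0.39 for trimming, STAR 2.7.9 for alignment to mm10 and HTSeq 2.0.2 for counting. The deposited values are raw counts per gene, with gene coordinates and lengths, and whether counting used strand is not given in the sources used here. Groups and replicate numbers came from the labels, and no sample was left out. Within a group, pairs of samples differed by a chi-square per gene of which the smallest was 116, so none was a repeated library. The smallest of all pairs, 112, was that of castrated replicate 1 and intact replicate 1.

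Analysis used R 4.3.3, edgeR 4.0.16, limma 3.58.1 and DESeq2 1.42.0. Genes with CPM above 1 in at least 2 samples were fitted together with TMM factors (0.944 to 1.036) and tested with the quasi-likelihood F-test. A call needed a Benjamini-Hochberg adjusted p under 0.05 over all 14612 genes and an absolute log2 fold change above 1. The common dispersion was 0.238. CPM were divided by the TMM-scaled library size and TPM used the deposited length. The SE of a log2 fold change is its size divided by the square root of F. The steps were tested on simulated counts.

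The 9 members and all lists were chosen with earlier results of these data known. Named genes were the members, the 2 highest and 2 lowest of each pathway list, pathway genes under the filter, the most abundant gene and any gene at 0 in each marker list, and the 3 genes closest in profile to Shh, Ihh, Gli1, Ptch1 and Hhip. Adipoq, Plin1, Cfd, Lep, Trp63, Krt5, Hoxb13, Foxa1, Spop, Krt14, Epcam, Cdh1, Krt8, Lum, Pdgfra, Pdgfrb, Thy1, Col1a1, Col1a2, Col3a1, Spink1, Apof, Vwf, Pbsn, Sox10, Evc and Cdon were named beyond that rule after their values were seen where the rule did not take them. Coordinates count from 1. Exon overlaps were taken from GENCODE M21, whose build is that of mm10, and promoter windows from RefSeq.

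Alternatives were other scalings, filters, tools, a TPM scale, a replicate block, omission of the 20 most abundant genes and leaving out each mouse. An older form of the quasi-likelihood fit and the kept filter for Hhip were added after seeing the data. Nothing in the sources used here says that samples were split from 1 animal. The p-values set the difference between the groups against the spread of the samples within them. A result for 1 gene of the pathway lists is not reported here.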

Additional observations from a re-analysis of the deposited data

How the results depend on the processing

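The 5 samples, of which 2 were intact and unlike each other, set the limits of every value given here. No Hedgehog member was called under any of 16 alternatives, although the number of called genes over the whole table rose from 0 to 989 with DESeq2 (703 higher, 286 lower) and to 369 (276 higher, 93 lower) by edgeR's likelihood ratio test, and ranged from 0 to 1 when single mice were left out (1 without intact replicate 1). Genes past the unadjusted p and the fold threshold numbered 1596, and between 867 (without castrated replicate 3) and 2570 (without intact replicate 1) when a mouse was left out, with 893 without castrated replicate 2. Ihh, Gli1, Gli2 and Hhip kept their direction in all 16 alternatives each. For Hhip this is not read as evidence, because it passed the filter only through castrated replicates 2 and 3, where it was high. Its fits without castrated replicate 2 or 3 kept the filter of all samples. The cause of the changes below was not tested.

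Same-numbered samples came from different mice and shared only a number, with deviation correlations of 0.149 and -0.045. With the replicate block, 975 genes passed the unadjusted p, and log2 fold changes turned to 0.27 for Shh, 0.089 for Scube2, -0.25 for Boc, 0.25 for Gpr161 and 0.046 for Tulp3. With limma voom they turned to 0.60 for Shh, 0.38 for Scube2 and 0.21 for Gpr161, and the median of the epithelial markers moved to -0.031. On log2(TPM + 0.5), where the median of all genes shifted to 0.13, Shh was at 0.52, Ptch1 at 0.017, Scube2 at 0.28, Gpr161 at 0.27 and Tulp3 at 0.065, and the medians were 0.28 for the other pathway genes, 0.027 for the Gli kinases and ligases and 0.095 for the epithelial markers. Without TMM scaling Scube2 was at 0.026.

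Leaving out 1 mouse at a time gave log2 fold changes from -1.31 to 2.68 for Shh, -0.28 to 0.079 for Ptch1, -0.60 to 0.058 for Smo and -0.057 to 0.96 for Gli3. Among the other genes the ranges were -1.34 to 0.55 for Scube1, -0.81 to 1.77 for Scube2, -0.0045 to 1.14 for Disp1, -6.45 to 4.12 for Lrp2, -0.49 to 1.11 for Boc, -1.16 to 1.79 for Gpr161, -0.61 to 0.50 for Tulp3, -0.050 to 0.22 for Btrc, -1.86 to 1.10 for Bmp4, -1.23 to 0.40 for Ccnd2 and -0.54 to 0.031 for Krt18. List medians ranged from -0.24 to 0.51 for the Hedgehog members, from 0.097 to 0.52 for the other pathway genes, -0.0045 to 0.88 for ligand release, 0.12 to 0.57 for ciliary genes, -0.17 to -0.019 for the Gli kinases and ligases and 0.15 to 0.99 for the targets. For marker lists they were 0.46 to 1.55 for fibroblasts, 0.44 to 1.34 for Schwann cells, 0.21 to 1.31 for endothelium, 1.08 to 1.92 for macrophages and -0.74 to 1.17 for the prostate lineage.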
